A study of Homo sapiens with 2 samples.

Results

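The regions described here are PHF8 peaks that lay at the edge of a long non-coding RNA (lncRNA) gene with no protein-coding gene boundary beside them. A peak was included when its midpoint lay within 1 kb of the start or end of a RefSeq gene of biotype lncRNA (GRCh38.p14) and farther than 1 kb from the start and end of every protein-coding gene. By this rule 67 of 4015 peaks of the vector library and 265 of 8928 peaks of the APOC2 library were members. PHF8 had been profiled by chromatin immunoprecipitation and sequencing (ChIP-seq) in RKO, an established human colon carcinoma line, with the same antibody lot in both libraries. The cells carried either the empty vector or a plasmid for overexpression of APOC2, which encodes apolipoprotein C-II, a cofactor of lipoprotein lipase. According to the series' own design note, the aim was to find PHF8 targets that APOC2 regulates. There was 1 library per condition and the peaks of each had been called separately. No difference between the libraries could therefore be set against replicate variation, no test was made, and each interval below covers counting error only.

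PHF8 is a histone demethylase of the Jumonji family. Its PHD finger binds H3K4me3, the mark of active promoters, and its catalytic domain removes methyl groups from repressive marks such as H3K9me2 and from H4K20me1. lncRNAs are transcripts without a long open reading frame. Many are transcribed from promoters of their own, many others start antisense to or divergently from a coding gene, and some are hosts of small nucleolar RNAs or microRNAs that are cut from their introns or exons. A promoter rich in unmethylated CpG dinucleotides, a CpG island, commonly carries H3K4me3.

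The promoter sequences of 5 lncRNA genes show the kind of DNA beside and partly under these peaks, with 1 exception. Each is the RefSeq window of GRCh38.p14 from 250 bases before to 50 bases after the transcript start, 5′ to 3′ on the gene's strand, with every CpG in capitals. The windows are chr19:27793891-27794190 (minus strand) for LINC00662, chr2:161244489-161244788 (plus) for LINC01806, chr10:38402922-38403221 (plus) for LOC101929540 and chr4:118278512-118278811 (plus) for SNHG8. LINC00662, LINC01806 and LOC101929540 were among the strongest members found in both libraries, and SNHG8 was among the strongest found in the APOC2 library alone. The fifth window, chr12:65642323-65642622 (minus) at MSRB3-AS1, had a peak found only with the empty vector and was chosen after its values were seen, as the contrast of low CpG content.
LINC00662: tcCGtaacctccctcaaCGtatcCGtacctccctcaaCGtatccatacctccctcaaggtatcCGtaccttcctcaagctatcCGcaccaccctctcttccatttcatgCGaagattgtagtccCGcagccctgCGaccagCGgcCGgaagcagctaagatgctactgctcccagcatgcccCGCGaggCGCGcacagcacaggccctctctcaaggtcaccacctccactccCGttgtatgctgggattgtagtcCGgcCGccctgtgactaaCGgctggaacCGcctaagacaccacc
LINC01806: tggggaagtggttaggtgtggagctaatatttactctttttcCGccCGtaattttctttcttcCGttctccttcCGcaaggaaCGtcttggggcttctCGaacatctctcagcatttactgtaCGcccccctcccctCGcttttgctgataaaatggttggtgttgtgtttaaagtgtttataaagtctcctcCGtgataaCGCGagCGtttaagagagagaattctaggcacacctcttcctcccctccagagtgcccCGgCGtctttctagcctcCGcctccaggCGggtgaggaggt
LOC101929540: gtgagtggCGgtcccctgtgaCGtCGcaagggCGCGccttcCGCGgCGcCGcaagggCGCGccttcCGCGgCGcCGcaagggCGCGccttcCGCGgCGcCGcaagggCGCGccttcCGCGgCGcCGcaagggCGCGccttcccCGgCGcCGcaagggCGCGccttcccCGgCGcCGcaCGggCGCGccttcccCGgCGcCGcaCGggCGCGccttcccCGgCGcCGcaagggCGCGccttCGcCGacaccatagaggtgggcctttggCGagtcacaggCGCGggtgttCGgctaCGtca
SNHG8: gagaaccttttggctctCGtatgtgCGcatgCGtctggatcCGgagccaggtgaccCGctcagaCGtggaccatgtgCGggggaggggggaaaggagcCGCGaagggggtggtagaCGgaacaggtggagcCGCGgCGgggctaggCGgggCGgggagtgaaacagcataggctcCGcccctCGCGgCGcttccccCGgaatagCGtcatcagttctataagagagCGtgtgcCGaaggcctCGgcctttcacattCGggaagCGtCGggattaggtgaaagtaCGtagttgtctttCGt
MSRB3-AS1: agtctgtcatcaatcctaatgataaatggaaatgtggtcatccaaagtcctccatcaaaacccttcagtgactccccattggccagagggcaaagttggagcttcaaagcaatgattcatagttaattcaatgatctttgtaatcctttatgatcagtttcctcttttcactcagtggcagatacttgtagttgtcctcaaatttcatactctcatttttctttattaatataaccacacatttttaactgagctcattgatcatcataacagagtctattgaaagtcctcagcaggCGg
The windows held 20 CpG for LINC00662, 16 for LINC01806, 58 for LOC101929540 and 29 for SNHG8, but 1 for MSRB3-AS1. Their GC contents were 59.3%, 50.7%, 79.0% and 62.3%, against 37.7% for MSRB3-AS1. The windows end 50 bases past the start, so the peaks covered only part of them: 25 bp (vector) and 61 bp (APOC2) at LINC00662, 75 and 59 bp at LINC01806, 21 and 44 bp at LOC101929540, and 115 bp of the APOC2 peak at SNHG8. At the 3 printed loci found in both libraries the summits lay past the transcript start, beyond the end of the window. At LINC00662 the summits lay 284 bp (vector) and 216 bp (APOC2) downstream of the start, at LINC01806 191 and 186 bp, and at LOC101929540 135 and 120 bp. The APOC2 summit of SNHG8 lay 46 bp downstream. The vector summit of MSRB3-AS1 lay 30 bp upstream of the start.

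CpG density separated lncRNA promoters with a peak from lncRNA promoters in general. A window was called CpG-dense when its GC content was at least 50% and its ratio of observed to expected CpG at least 0.6. Of the 12917 lncRNA promoter windows in the RefSeq table, 24.4% were CpG-dense (95% Wilson interval 23.7 to 25.2%). Of the 39 windows overlapped by a vector member it was 87.2% (73.3 to 94.4%), and of the 154 overlapped by an APOC2 member 87.7% (81.5 to 92.0%). APOC2 members with a vector partner and those without one had similar shares, 91.9% of 37 windows (78.7 to 97.2%) and 86.3% of 117 (78.9 to 91.4%). For coding genes, 60.0% of 22199 windows were CpG-dense, and 94.8% of the 3462 overlapped by an APOC2 peak at a coding boundary (94.0 to 95.5%). The median window held 5 CpG over all lncRNA promoters, 29 under vector members and 30 under APOC2 members. The table used here had no chromosome 8 windows, so these shares are for members on other chromosomes.

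**Figure D1:**
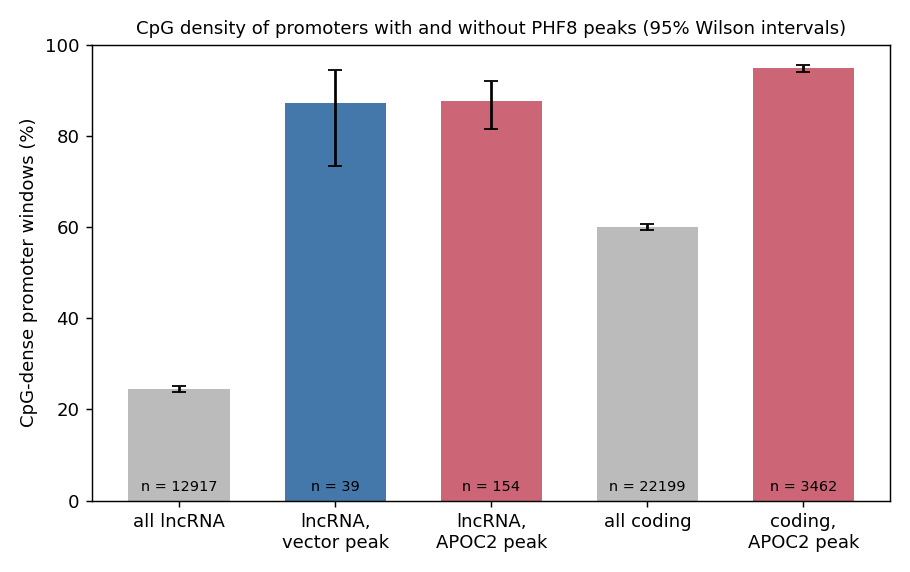
Share of promoter windows (300 bp) that were CpG-dense, in percent, with 95% Wilson intervals as error bars. Grey bars are all windows of a gene class, blue and red bars those overlapped by a vector or APOC2 peak; both lncRNA bars with a peak stand near 87%, against 24.4% for all lncRNA windows.

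Short motifs were counted in the same windows on both strands. CCGGAAG, the core of many ETS factor sites, was in 21.4% of windows overlapped by an APOC2 member, against 5.82% of all lncRNA windows and 10.3% of all 35116 promoter windows. GGGGCGGGG, a site of SP and KLF factors, was in 21.4%, against 7.19% of lncRNA windows and 15.7% of all windows. The 10-base palindromic NRF1 consensus was in 5.19%, against 0.790% of lncRNA windows and 1.24% of all windows. TTTCCCGC or TTTGGCGC, forms of the E2F site, were in 7.14%, against 1.37% and 2.27%. TATAAA, the TATA box, ran the other way, with 2.60% of windows under APOC2 members, 15.1% of all lncRNA windows and 11.5% of all windows. It was in 3 of the 39 windows under vector members (7.69%). Under APOC2 members it was in 3 of 37 windows with a vector partner (8.11%) and in 1 of 117 without one (0.855%). These shares rest on few windows. Coding windows overlapped by an APOC2 peak at a coding boundary held the ETS core in 23.9% and the SP/KLF site in 34.3%. They held the NRF1 consensus in 2.92%, the E2F forms in 4.30% and TATAAA in 2.66%. Each motif thus differed from all windows in the same direction under coding boundary peaks, so these directions were not particular to lncRNA promoters. The NRF1 and E2F shares under APOC2 members rest on 8 and 11 of 154 windows. Each of the motifs that was more frequent under APOC2 members than in all lncRNA windows holds at least 1 CpG, and TATAAA holds none. LINC00662 (ETS) and SNHG8 (SP/KLF) hold such a match, and the window of LINC01806 holds TATAAA. A match describes these letters and is not evidence that a factor binds.

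Although the rule counted both ends of a gene, nearly all members lay at the 5′ end. Strand was known, from the promoter table, for the genes of 48 vector and 208 APOC2 members. Of these, 47 (97.9%, 89.1 to 99.6%) and 204 (98.1%, 95.2 to 99.2%) lay within 1 kb of a 5′ end. The members at a 3′ end alone were 1 in the vector library, at LOC105379418, and 4 in the APOC2 library, at LOC112268274, MZF1-AS1, LOC124902297 and DLG3-AS1. These were named after their values were seen. Strand was not known for 19 vector and 57 APOC2 members, those on chromosome 8 among them.

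Around the 5′ end the summits formed 2 groups with a gap between them. In the APOC2 library 202 summits lay within 1 kb of a lncRNA 5′ end with known strand. Of these, 72 (35.6%, 29.4 to 42.5%) lay within the first 200 bp of the gene and 53 (26.2%, 20.7 to 32.7%) lay 500 to 200 bp upstream, but only 15 (7.43%, 4.55 to 11.9%) lay in the last 200 bp before the 5′ end. In the vector library the counts were 20, 11 and 3 of 47. At coding boundaries the same gap was present, with 3.69% of 3580 APOC2 summits in the last 200 bp upstream (3.12 to 4.36%). The balance differed, since 55.8% of coding summits lay in the first 200 bp of the gene (54.2 to 57.5%) and 12.6% lay 500 to 200 bp upstream (11.6 to 13.8%). The intervals of the lncRNA and coding shares did not overlap for any of these 3 bins in the APOC2 library. The bins were chosen after the distances had been seen.

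**Figure D2:**
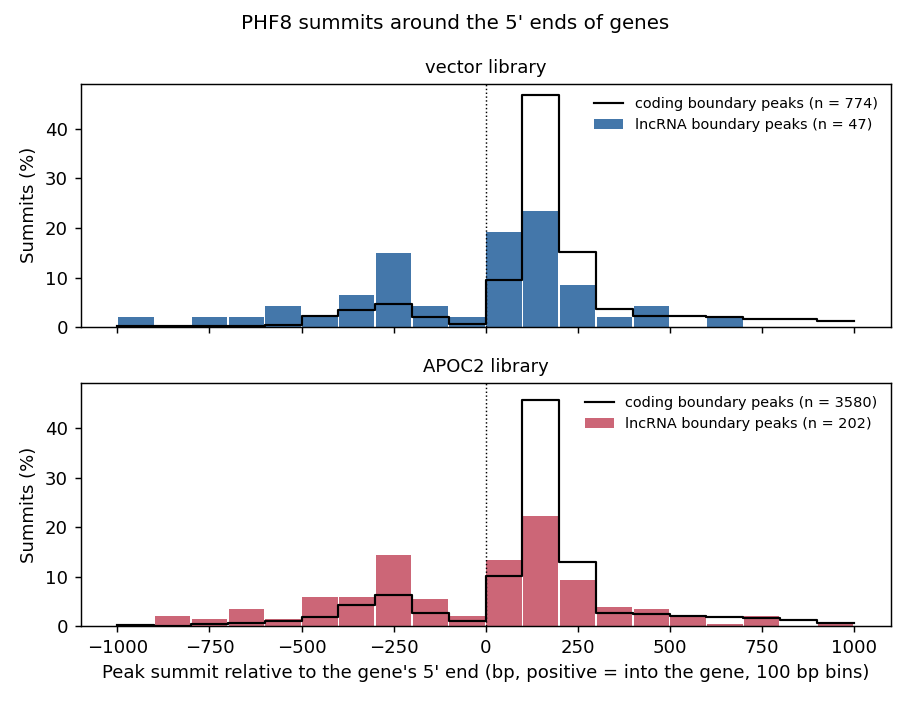
Share of peak summits, in percent, by position relative to the gene's 5′ end in 100 bp bins (positive values lie inside the gene). Bars are lncRNA boundary peaks of the vector library (top, n = 47) and APOC2 library (bottom, n = 202), and the black line is coding boundary peaks of the same library; both sets have few summits just upstream of the 5′ end and a main group just inside the gene.

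Freedom from a coding gene boundary did not mean distance from coding transcription. The midpoint lay inside an annotated coding gene for 28 of 67 vector members (41.8%, 30.7 to 53.7%) and 132 of 265 APOC2 members (49.8%, 43.8 to 55.8%). Coding genes also have transcript starts inside their outer boundaries. Such a start lay within 1 kb of 17 of the 55 vector members off chromosome 8 (30.9%, 20.3 to 44.0%) and of 92 of the 250 APOC2 members (36.8%, 31.1 to 42.9%). At these members the lncRNA and the coding transcript could not be told apart as the site of the peak. A lncRNA transcript start lay within 1 kb of 46 of 55 and 201 of 250 members. Members with and without a coding start nearby had similar fold enrichments in the APOC2 library, with medians of 5.27 and 5.24. A gene end of some other class, such as a pseudogene or small RNA, lay within 1 kb of 13 vector and 48 APOC2 members.

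On the lncRNA side the 1 kb limit cut few peaks. With both the lncRNA and the coding limit at 500 bp there were 73 vector and 308 APOC2 members. The members 800 to 1000 bp from a lncRNA boundary numbered 6 in the vector library (median fold enrichment 6.78) and 16 in the APOC2 library (5.15). Just outside, at 1000 to 1200 bp, lay 0 vector peaks and 8 APOC2 peaks (median 6.17). A further 241 vector and 985 APOC2 peaks lay near a lncRNA boundary and a coding boundary at once and were left out by the rule.

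Peaks at lncRNA boundaries were 3.96 times as many in the APOC2 library as in the vector library (265 against 67; interval 3.03 to 5.17). The ratio was 4.20 for coding boundary peaks (4421 against 1052; 3.93 to 4.49) and 1.46 for all other peaks (4242 against 2896; 1.40 to 1.54). Members were 1.67% of all vector peaks (1.32 to 2.11%) and 2.97% of all APOC2 peaks (2.64 to 3.34%). The tables also hold many peaks in 32 intervals of at least 1 Mb without an annotated gene, here called gene-free intervals, and by definition no member lay inside one. With those peaks left out, members were 4.20% of vector peaks (3.32 to 5.30%) and 4.53% of APOC2 peaks (4.03 to 5.09%). The Wilson intervals of these shares overlapped, so the shares over all peaks do not show a larger lncRNA share near genes with APOC2.

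The members were moderate peaks in both libraries. The pileup is the number of overlapping fragments at the summit, and the fold enrichment is (pileup + 1) / (local background + 1), both as the authors listed them. Vector members had pileups of 9.90 to 54.4 with a median of 24.7 (21.8 to 27.7) and fold enrichments of 2.97 to 11.2 with a median of 5.43 (4.78 to 5.73). APOC2 members had pileups of 6 to 96 with a median of 25 (23 to 27) and fold enrichments of 2.73 to 13.9 with a median of 5.30 (5.04 to 5.59). Coding boundary peaks had median fold enrichments of 5.11 (4.95 to 5.27) and 5.28 (5.22 to 5.35), so the intervals of the 2 classes overlapped in each library. The medians over all peaks of each table were higher, 7.42 and 6.003. The lengths of members ran from 224 to 1157 bp (median 295) in the vector library and from 218 to 1134 bp (median 307) in the APOC2 library.

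Nearly all vector members were found again in the APOC2 library. Of 67 vector members, 60 were overlapped by an APOC2 peak by at least 1 bp (89.6%, 80.0 to 94.8%), and 7 were not. Over all vector peaks 16.4% were not overlapped, and 7.84% of those outside the gene-free intervals. The overlapped share was higher at coding boundaries, 98.0% (97.0 to 98.7%), and this interval lay above that of the members. Of 265 APOC2 members, 56 were overlapped by a vector peak (21.1%, 16.6 to 26.4%), and 209 were not. Over all APOC2 peaks 62.7% were not overlapped, and 75.3% outside the gene-free intervals. At coding boundaries 22.8% of APOC2 peaks were overlapped (21.5 to 24.0%), a share inside the interval of the members.

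APOC2 members without a vector partner were lower peaks than those with one. Their median fold enrichment was 4.84 (4.50 to 5.18), against 7.18 (6.29 to 8.01) with a partner, and their median pileup 24 against 32. Coding boundary peaks gave 4.93 and 7.22. A vector peak that did not overlap but lay within 1 kb was found for 11 of the 209 members without a partner. In the vector library the 7 members without a partner had a median pileup of 14.8 and the 60 with one 25.7, while their fold enrichments were alike, 5.45 and 5.43.

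**Figure D3:**
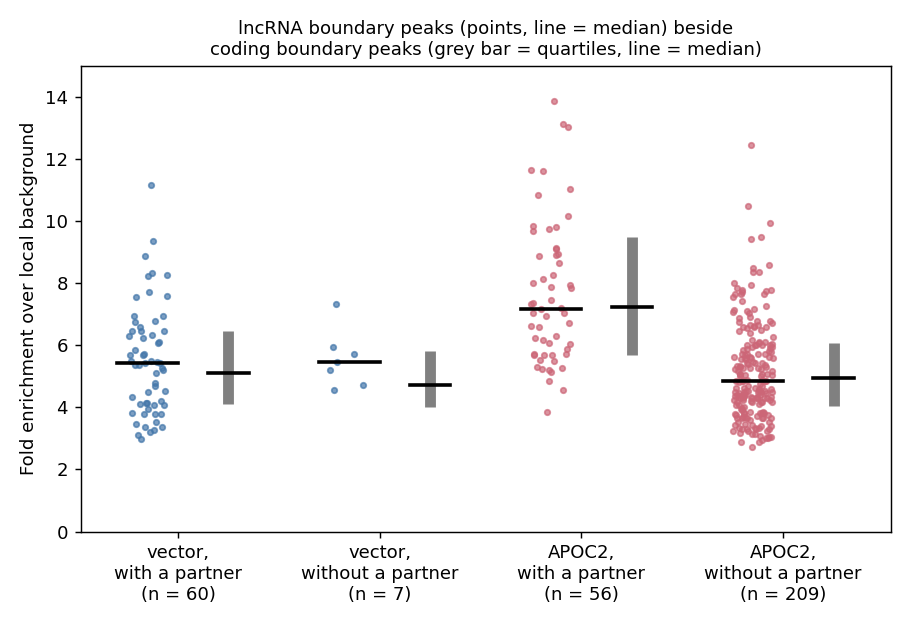
Fold enrichment over the local background (linear axis) of each lncRNA boundary peak (points, black line at the median), split by library and by whether a peak of the other library overlapped it. Grey bars give the quartiles and a black line the median of coding boundary peaks; the APOC2 peaks with a partner stand highest, with a median of 7.18.

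At sites found in both libraries the APOC2 peak was usually the higher one. Matching each peak once gave 58 pairs with a member on at least 1 side. In 55 both peaks were members. At SNHG6 and TAX1BP1-AS1 the APOC2 peak was classed with a coding gene (MCMDC2 and TAX1BP1), and at LINC02947 with neither, because its midpoint had moved. The fold enrichment was higher in the APOC2 library in 51 of 58 pairs (87.9%, 77.1 to 94.0%), where 55.3% of all 3300 pairs in the tables were. It was at least 1.5-fold higher in 23 (39.7%, 28.1 to 52.5%), against 17.6% of all pairs, and at least 1.5-fold lower in 0, against 7.97%. On the log2 scale the APOC2 fold enrichment exceeded the vector one by a median of 0.49 (0.32 to 0.61). Over the 1005 coding boundary pairs it was 0.52 (0.49 to 0.54), inside the interval of the members, and over all pairs 0.07 (0.05 to 0.09). By this median the difference was thus not particular to lncRNA boundaries. The 3300 pairs include those of neither boundary class, and the counts above are not given for coding boundary pairs alone.

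The pileups gave the same direction after scaling for depth. Steps in the listed values put the depth of the APOC2 library at 0.823 times that of the vector library, if both were called against the same control. With pileups scaled for this, the median log2 ratio of the 58 pairs was 0.54 (0.45 to 0.63), and 54 were higher in the APOC2 library. Unscaled, the median was 0.28 (0.18 to 0.36). For 15 pairs (25.9%, 16.3 to 38.4%) the counting interval of the scaled pileup ratio lay wholly above equality, against 13.0% of all pairs and 33.5% of coding boundary pairs, and for 0 wholly below, against 0.545% of all pairs. The listed local backgrounds had medians of 4.48 (vector) and 3.57 (APOC2). They were not scaled for depth, so these medians do not show that the background itself differed. The part of the background in the fold enrichments was not tested. The summits of a pair lay a median of 39 bp apart, with 47 of 58 within 100 bp. The APOC2 peaks of the pairs were longer, with a median of 459.5 bp against 301 bp.

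**Figure D4:**
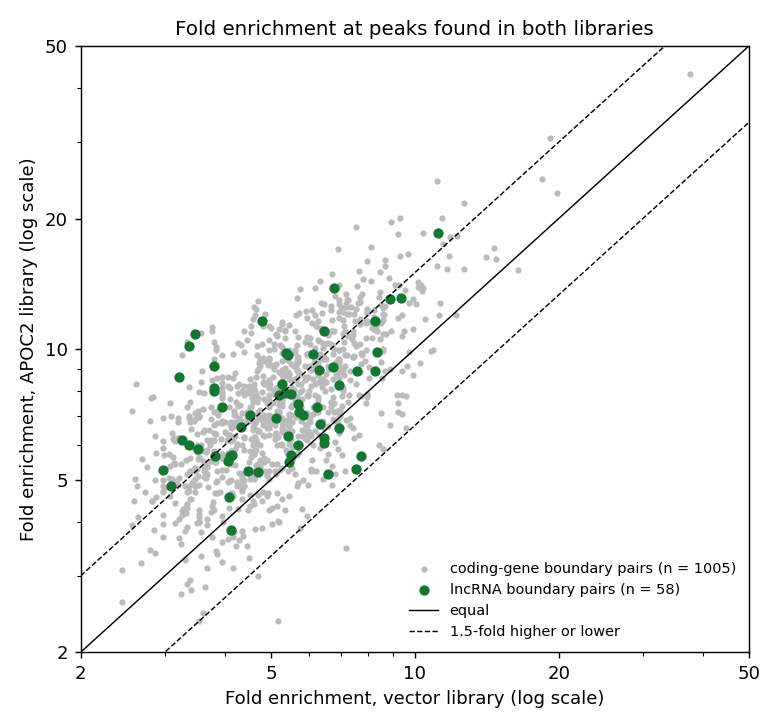
Fold enrichment of paired peaks in the vector library (x) and the APOC2 library (y), both on log scales. Green points are the 58 lncRNA boundary pairs and grey points the 1005 coding boundary pairs; the solid line marks equality and the dashed lines 1.5-fold differences, and 51 green points lie above the solid line with none below the lower dashed line.

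The pair of highest fold enrichment lay at LINC02947 on chromosome 8, an intergenic lncRNA. Its pileup was 32.6 with the vector and 51 with APOC2, and its fold enrichment 11.2 and 18.5. Only the vector peak of this pair was a member. At LOC105372390, which lies by the KRAB zinc finger gene ZNF420 on chromosome 19, the pileups were 18.8 and 24 and the fold enrichments 9.34 and 13.1. At the shared promoter of LINC00662 and LINC02987, whose sequence is printed above, the pileups were 25.7 and 38 and the fold enrichments 8.86 and 13.0. The interval of the scaled pileup ratio excluded equality at LINC02947 (log2 0.91, 0.25 to 1.59) and LINC00662 (0.83, 0.07 to 1.61), and included it at LOC105372390 (0.62, -0.31 to 1.57).

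LINC01806 on chromosome 2 had pileups of 23.8 and 30 and fold enrichments of 8.25 and 11.6. LOC101929540 on chromosome 10, the window with the most CpG of those printed, had pileups of 14.8 and 18 and fold enrichments of 6.76 and 9.10. Its printed window repeats a short unit many times. LOC101929540, LINC00662 and LINC02947 lay within 2 Mb of a gene-free interval, and the part of shared reads at them was not tested. The other strong pairs lay on chromosomes 8 and 9. They were at RHPN1-AS1, antisense to the rhophilin gene RHPN1, at LOC124902026 in the ArfGAP gene ASAP1, at LY6S-AS1, at SYBU-AS1, antisense to the syntabulin gene SYBU, and at LOC105379839 in RABGAP1. Their fold enrichments ran from 6.44 to 8.32 in the vector library and from 8.88 to 13.9 in the APOC2 library. All 10 of the strongest pairs were higher in the APOC2 library by fold enrichment. LY6S-AS1 was the nearest to equal, with pileups of 19.8 and 19 and fold enrichments of 8.24 and 8.88.

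The 10 pairs whose APOC2 fold enrichment stood farthest above the vector one had vector backgrounds at or above the median of 4.48. The largest difference was at ZNF252P-AS1 on chromosome 8, antisense to a zinc finger pseudogene, with pileups of 33.6 and 55, fold enrichments of 3.46 and 10.8 and a log2 ratio of 1.65. OXR1-AS1, antisense to the oxidation resistance gene OXR1, followed with pileups of 32.6 and 60, fold enrichments of 3.37 and 10.2 and a log2 ratio of 1.60. At both, the listed vector background was 9.0, against 4.16 and 4.99 in the APOC2 table, not scaled for depth. The scaled pileup ratios were smaller than those of fold enrichment, 0.98 (0.33 to 1.64) and 1.14 (0.51 to 1.80). At LINC02693 on chromosome 17 the pileups were 24.7 and 58 and the log2 ratio 1.43 by fold enrichment and 1.495 (0.80 to 2.23) by scaled pileup, the largest of the named pairs by the latter measure. At DNPEP-AS1, antisense to an aspartyl aminopeptidase gene, the pileups were 19.8 and 41 and the ratios 1.10 and 1.32 (0.51 to 2.17).

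At the other pairs in this group the scaled pileup ratio was also smaller than that of fold enrichment, to differing degrees. BSG-AS1, antisense to the basigin gene BSG, had a log2 ratio of 1.28 by fold enrichment and 0.72 by scaled pileup (-0.02 to 1.48). SUGT1P4-STRA6LP-CCDC180, a readthrough transcript, had 1.08 against 0.35 (-0.56 to 1.26), with pileups of 21.8 and 23 over backgrounds of 5.0 and 2.0, as listed. LINC03006 had 0.92 against 0.45 (-0.28 to 1.19). STAG3L5P-PVRIG2P-PILRB had 1.27 against 0.90 (0.34 to 1.47), RHPN1-AS1 1.03 against 0.84 (0.24 to 1.46) and LOC101930100 0.90 against 0.82 (0.31 to 1.34). Of these 10 pairs, 7 thus had a scaled pileup interval above equality.

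Differences in the other direction were small. The fold enrichment was lower in the APOC2 library by 1.5-fold or more at none of the 58 pairs, and the largest such difference was at HCG4B in the major histocompatibility complex, with fold enrichments of 7.55 (vector) and 5.30 (APOC2) (log2 -0.51) with pileups of 21.8 and 12. Its scaled pileup ratio was -0.59 with an interval of -1.74 to 0.48. LOC124902038 by EXOSC4, an exosome subunit gene, had a log2 ratio of -0.44 by fold enrichment but 0.28 by scaled pileup. KIAA1614-AS1 had -0.36 and -0.02, LINC01023 -0.10 and 0.16, and MIR31HG, the host gene of miR-31, -0.08 and 0.02. Of these 5, HCG4B and KIAA1614-AS1 were lower by both measures, and every scaled pileup interval included equality.

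The strongest APOC2 members without a vector partner were at loci of several kinds. VIM-AS1, antisense to the vimentin gene VIM, had the highest fold enrichment, 12.4, with a pileup of 34 and a midpoint 432.5 bp from the gene's 5′ end. MIR1302-2HG followed with 10.5 and a pileup of 57, at the end of chromosome 1 beside the pseudogene WASH7P, in a family of near-identical copies where reads may be shared. LOC124902075 in the adhesion receptor gene ADGRB1 had 9.94, LOC112268090 beside the pseudogene FAM86FP 9.47, and LOC105375422 in FAM200A 9.44. At LOC105375422 a FAM200A transcript start lay 32 bp from the midpoint. The others were at the LINC00467 promoter (8.58), LINC03014 and LINC03015 (8.47), SNHG8 (8.35), LOC124903670 in the kinase gene SBK1 (8.34) and LOC124904990 on the short arm of chromosome 21 (8.01). Their pileups ran from 17 to 57. SNHG8, host of the small nucleolar RNA SNORA24, had a pileup of 21 over a background of 1.63.

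All 7 vector members without an APOC2 partner had low pileups. LOC127239154 had a pileup of 14.8 and the highest fold enrichment, 7.32. RNF139-DT, divergent from a ubiquitin ligase gene, had 10.9 and 5.95, and LINC03057 18.8 and 5.72. At these last 2 loci an APOC2 peak lay 148 and 86 bp away without overlapping. MSRB3-AS1 had 9.90 and 5.45, LOC105379418 11.9 and 5.19, GHET1 17.8 and 4.70, and BOK-AS1, antisense to a BCL2 family gene, 16.8 and 4.56.

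By gene, 280 of the 18303 annotated lncRNA genes (1.53%, 1.36 to 1.72%) had a member peak. The APOC2 library alone had one at 208, both libraries at 62 and the vector library alone at 10. Of these 10, LINC02947, SNHG6, TAX1BP1-AS1 and WDR5-DT were overlapped by an APOC2 peak that the rule placed elsewhere, and the other 6 were BOK-AS1, GHET1, LOC105379418, LOC127239154, MSRB3-AS1 and RNF139-DT. WDR5-DT is divergent from WDR5, a core subunit of H3K4 methyltransferase complexes. More than 1 member peak lay at 2 genes with the vector and at 27 with APOC2. The split of 208, 62 and 10 genes stands beside the shares over all peaks outside the gene-free intervals. There, 75.3% of APOC2 peaks and 7.84% of vector peaks were not overlapped by the other library.

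The share of genes with a member peak differed between the classes that lncRNA symbols spell out. It was lowest for LOC symbols, which await a name, with 116 of 12385 (0.937%, 0.782 to 1.12%). It was 46 of 2309 for LINC genes (1.99%, 1.497 to 2.65%), 12 of 592 for divergent transcripts (2.03%, 1.16 to 3.51%) and 70 of 2047 for antisense genes (3.42%, 2.72 to 4.30%). It was 6 of 87 for microRNA host genes (6.90%, 3.20 to 14.2%) and 5 of 29 for genes with an SNHG symbol (17.2%, 7.60 to 34.5%). The antisense class was therefore 25% of the genes with a peak and 11.2% of those annotated. These shares are over all annotated genes of a class, also those beside a coding boundary, where the rule allows no member. Of all 18303 lncRNA genes, 897 (4.90%) had a peak only with a coding boundary and count here as without a member. Divergent transcripts start beside a coding gene, so the rule itself limits their share, and the classes were not compared without this limit. Genes with a curated RefSeq transcript held 73.1% of vector members (61.5 to 82.3%) and 63.8% of APOC2 members (57.8 to 69.3%), against 36.7% of all lncRNA genes.

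Hosts of small nucleolar RNAs were examined as a list of 37 symbols, 33 of them annotated as lncRNA. A member peak lay at 7 (21.2%, 10.7 to 37.8%), against 1.53% of all 18303 lncRNA genes. At 5 (15.2%) the only boundary peaks lay at a coding boundary as well, and 21 (63.6%) had no peak at a boundary, against 4.90% and 93.6% of all lncRNA genes. LOC symbols, absent from this list, make up 67.7% of all lncRNA genes and had a member peak in 0.937%. The list was not compared with named genes alone. SNHG5, host of the U50 small nucleolar RNAs, had a member peak in both libraries, with pileups of 24.7 and 24 and fold enrichments of 4.70 and 5.20. SNHG6 had pileups of 30.7 and 42 and fold enrichments of 5.28 and 8.31. SNHG8, SNHG21, SNHG29, DANCR and EPB41L4A-AS1 had one in the APOC2 library alone, with fold enrichments of 3.65 (DANCR) to 8.35 (SNHG8) and pileups of 21 to 30. GAS5, ZFAS1 and SNHG1, further known hosts, had none at a boundary in either library, though a vector peak lay inside GAS5 (pileup 20.8, fold enrichment 5.27).

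Of 41 well-studied lncRNA genes, 5 had a member peak (12.2%, 5.32 to 25.5%), again against 1.53% of all lncRNA genes. The other 36 (87.8%) had no peak at a boundary in either library, against 93.6% of all lncRNA genes. This list holds no LOC symbols either and was not compared with named genes alone. NORAD, a cytoplasmic RNA that binds Pumilio proteins, had pileups of 37.6 and 38 and fold enrichments of 5.85 and 7.04. MIR31HG had pileups of 11.9 and 10 and fold enrichments of 6.45 and 6.08. CRNDE, named for its higher expression in colorectal neoplasia, had a peak in the APOC2 library alone (pileup 25, fold enrichment 3.81). So had MIR210HG, host of the hypoxia-induced miR-210 (27 and 4.10), and JPX of the X inactivation centre (13 and 3.23). The nuclear RNAs MALAT1 and NEAT1, and PVT1, CCAT1 and PCAT1 near the MYC gene, were among those without a boundary peak. Of the 36, 4 held a peak inside the gene, farther than 1 kb from its ends. MALAT1 held 3 vector peaks, with fold enrichments of 3.96, 10.5 and 5.44, and 2 APOC2 peaks, with 4.50 and 4.16. MIAT, OIP5-AS1 and DLEU2 held 1 APOC2 peak each, with fold enrichments of 4.801, 3.003 and 3.15.

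Chromosomes 8 and 9 held 23 of the 67 vector members (34.3%, 24.1 to 46.3%) and 42 of the 265 APOC2 members (15.8%, 11.9 to 20.7%). The APOC2 library had 1.83 times as many members there as the vector library (1.10 to 3.02) and 5.07 times as many on the other chromosomes (3.67 to 6.99). APOC2 members were overlapped by a vector peak in 42.9% on chromosomes 8 and 9 (29.1 to 57.8%) and in 17.0% elsewhere (12.7 to 22.5%). Neither pair of intervals overlapped. Coding boundary peaks had the same division, with ratios of 1.84 and 5.25 and overlapped shares of 51.3% and 18.3%. Fold enrichment at pairs did not follow it, since the median log2 ratio was 0.48 over the 20 pairs on chromosomes 8 and 9 (0.16 to 0.77) and 0.49 over the 38 others (0.27 to 0.61).

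**Figure D5:**
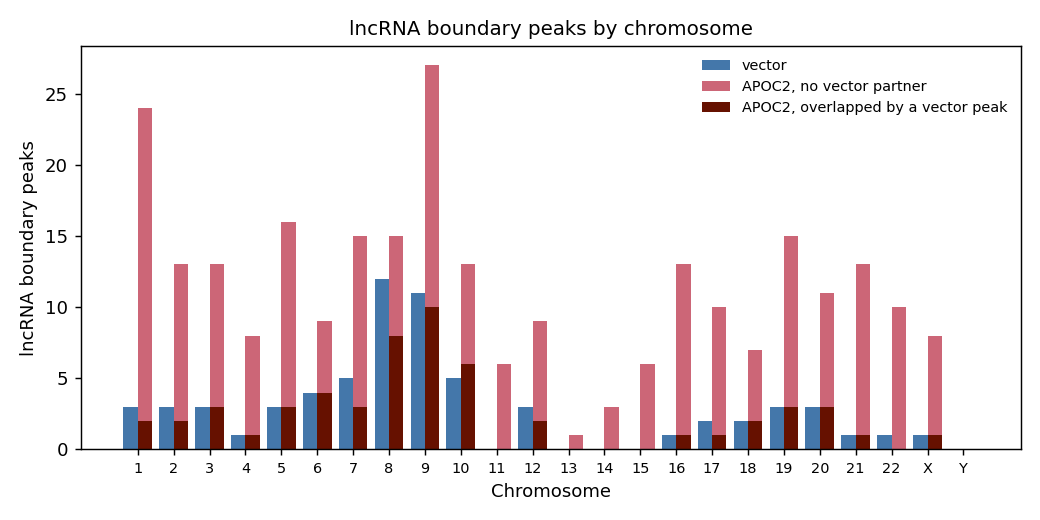
Number of lncRNA boundary peaks on each chromosome. Blue bars are vector peaks, and each APOC2 bar is stacked from peaks overlapped by a vector peak (dark) and peaks without a partner (red); chromosomes 8 and 9 hold 12 and 11 of the 67 vector peaks.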

How the data were processed

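PHF8 ChIP-seq peaks of 1 vector and 1 APOC2 overexpression library of RKO cells were analysed, grouped by the treatment in the labels. The submitters' processing notes name Bowtie2 2.2.9, MACS2 2.0, HOMER and hg38. The control library, the thresholds and the handling of duplicate reads are not given in the sources used here. Per the file headers, the authors listed the pileup signal at each summit and a fold enrichment over local background. Another 2 deposited columns without a usable name held -log10 of the p-value and of the q-value, as judged from their place and values; the highest q-values were 0.0266 and 0.0450. Read totals are not in the tables, so absolute depth is unknown. Vector pileups were whole multiples of 0.990 in 99.8% (tolerance 0.005), APOC2 pileups were whole, and 65.9% of APOC2 backgrounds lay on steps of 0.832 (tolerance 0.02). These steps gave the relative depth.

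Peak midpoints were set against the start and end of 18303 lncRNA and 20037 coding genes of a RefSeq table (GRCh38.p14). Strand and promoter windows came from a RefSeq promoter table, which matched 11462 lncRNA genes. Peaks overlapping by at least 1 bp (bedtools 2.31.1, pandas 2.3.3) were called shared and paired once each by longest overlap. Shares carry 95% Wilson intervals, medians order-statistic intervals and pileup ratios counting intervals. All intervals cover counting error only, because there was 1 library per condition, and those of pileup ratios count fragments. The fragments carried no molecular identifiers. The code was tested on simulated peaks. Named peaks are the 10 strongest pairs, the 10 pairs most raised and 5 most lowered in APOC2, 10 strongest APOC2 peaks without a partner and all such vector peaks. The small nucleolar RNA host and well-studied lncRNA lists were named where a member peak lay at them. The members, lists and rules were chosen with earlier results of these data known.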

Additional observations from a re-analysis of the deposited data

How the results depend on the processing

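The ratio of member numbers stayed within its interval under every alternative run (fold enrichment of at least 5, 500 bp windows, curated lncRNA genes, q of at most 0.001, without chromosomes 8 and 9, outside gene-free intervals, no coding transcript start within 1 kb). No median, ratio of numbers or pair past 1.5-fold changed direction. Among smaller differences, scaled pileup put LOC124902038 (0.28), LINC01023 (0.16) and MIR31HG (0.02) above equality, where fold enrichment put them below, and pileup as listed put LY6S-AS1 at -0.06. With fold enrichment of at least 5, members made up 1.28% (vector) and 2.54% (APOC2) of peaks, pairs had a median log2 ratio of 0.32, and 120 genes carried an APOC2 peak alone and 39 a peak of each library. With curated genes alone the shares were 1.22% and 1.89%, with 128 genes carrying an APOC2 peak alone. Without members near a coding transcript start, an alternative added after seeing the data, they were 1.25% and 1.94%, with 136 such genes. Outside gene-free intervals the shares were 4.20% and 4.53%, by a smaller denominator, and their Wilson intervals overlapped, unlike those over all peaks. With 500 bp windows the APOC2 share was 3.45%, because fewer peaks met the coding exclusion. Requiring overlap of 50% of both peaks lowered the overlapped share to 62.7% of vector and 15.8% of APOC2 members. Pileup as listed gave a median log2 ratio of 0.28. Without chromosomes 8 and 9, 6 genes carried a vector peak alone. No replicate could be left out. No paired analysis was possible because there was 1 library per condition. With 1 library each, differences in depth, control or immunoprecipitation between the libraries cannot be told apart from the treatment. The relative depth assumes a common control, and depth limits the listing of low peaks.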

Other observations

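Members lay near the gene-free intervals (centromeres, for example) more often than coding boundary peaks did. Within 2 Mb of such an interval lay 24 of 265 APOC2 members (9.06%, Wilson interval 6.16 to 13.1%) and 8 of 67 vector members (11.9%, 6.18 to 21.8%), against 2.31% (1.90 to 2.79%) and 1.996% (1.31 to 3.03%) of coding boundary peaks. Of the 24, 8 were on chromosome 21, at genes such as LINC01670, LINC03104, CH507-145C22.1, LOC124904990 and LOC101930100. The 24 also held LINC00662, LOC101929540 and LINC02693, and the vector members near an interval included LINC02947. The median fold enrichment of the 24 was 6.77 (5.46 to 7.64), against 5.22 (4.85 to 5.50) for the other APOC2 members. They were overlapped by a vector peak in 25% (12% to 44.9%), against 20.7% (16.1 to 26.3%) of the others. Sequence near these intervals is often duplicated, and the part of shared reads in these values was not tested. The share of annotated lncRNA genes within 2 Mb of these intervals is not given here. The position of the peaks thus cannot be told apart from where lncRNA genes are annotated.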
